A study of Mus musculus with 6 samples.

Results

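The 8 genes described here are mouse genes of the circadian clock's output and of its Period loop: Dbp, Tef, Hlf, Nfil3, Per1, Per2, Per3 and Usp2. They were chosen by gene symbol, and every probe set that the platform annotation gives to one of these symbols was taken. This gave 20 of the 45101 probe sets on the array, and each gene had at least 1 that was tested. Signals came from liver RNA of mice aged 21 days, of strain C57BL/6JBomTac per the labels, which were either ACBP-/-, lacking the acyl-CoA binding protein encoded by Dbi, or wild-type controls of the same age and strain label. Each of the 6 Affymetrix arrays was hybridised with RNA pooled from 5 mice, 3 pools per genotype, so the spread between pools is a spread of pool means. Per the labels, all mice were in the fed state and were removed from the mother between 8 and 11 am. The labels state neither the hour for each pool nor the light schedule nor how the allele was made. Whether the hour differed between genotypes is therefore not known, and the part of the hour in the results was not tested.

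In the mammalian clock, CLOCK and BMAL1 activate genes through E-box sequences, and the PER and CRY proteins made from such genes hold CLOCK and BMAL1 back. Dbp, Tef and Hlf encode the PAR bZIP factors, transcription activators that pass the rhythm on by binding D-box sequences, and Nfil3 encodes a repressor that binds the same sequences. Usp2 encodes a deubiquitinase whose liver transcript is strongly rhythmic in mice.

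Promoter sequences are shown for Per3, Tef and Per1 because each holds a D-box or an E-box within the 300 bases examined, 250 before and 50 after an annotated start. They come from RefSeq, build GRCm38.p6, where 7 of the 8 genes, all but Per2, had at least 1 window, 9 in all. Sequences run 5' to 3' on the gene's strand, which is minus for Per3 and plus for Tef and Per1, and capitals mark the motif.
Per3 chr4:151044616-151044915: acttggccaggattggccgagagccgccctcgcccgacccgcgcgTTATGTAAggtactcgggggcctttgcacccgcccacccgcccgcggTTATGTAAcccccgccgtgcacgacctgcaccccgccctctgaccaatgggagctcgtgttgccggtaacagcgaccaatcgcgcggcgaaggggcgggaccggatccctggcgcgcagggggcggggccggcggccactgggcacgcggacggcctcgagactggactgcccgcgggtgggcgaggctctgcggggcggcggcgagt
Tef chr15:81802423-81802722: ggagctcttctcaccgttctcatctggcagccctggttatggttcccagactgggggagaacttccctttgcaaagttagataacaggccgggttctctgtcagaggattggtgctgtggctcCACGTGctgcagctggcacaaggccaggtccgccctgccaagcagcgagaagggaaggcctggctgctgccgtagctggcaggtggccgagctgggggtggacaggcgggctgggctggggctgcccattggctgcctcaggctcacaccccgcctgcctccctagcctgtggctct
Tef chr15:81811164-81811463: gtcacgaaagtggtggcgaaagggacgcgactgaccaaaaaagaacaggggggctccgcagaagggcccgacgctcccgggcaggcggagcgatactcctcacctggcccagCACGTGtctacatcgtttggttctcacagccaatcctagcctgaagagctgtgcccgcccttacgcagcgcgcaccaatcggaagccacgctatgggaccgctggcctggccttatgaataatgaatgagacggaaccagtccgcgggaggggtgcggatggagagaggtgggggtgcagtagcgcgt
Per1 chr11:69098699-69098998: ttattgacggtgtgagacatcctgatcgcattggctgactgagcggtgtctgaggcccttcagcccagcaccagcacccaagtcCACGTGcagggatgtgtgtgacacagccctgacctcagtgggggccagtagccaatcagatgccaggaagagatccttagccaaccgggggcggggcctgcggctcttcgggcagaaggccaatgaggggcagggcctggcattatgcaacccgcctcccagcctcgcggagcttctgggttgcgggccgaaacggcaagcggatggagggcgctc
The Per3 window held the D-box TTATGTAA at 205 and again at 158 bases before the start. Each of the Tef windows held the E-box CACGTG, at 127 and 138 bases before its start, and the Per1 window held it at 166. Searches covered both strands, and the letters looked for were CACGTG, the related CACGTT, TTATGTAA, TTACGTAA, the cAMP response element TGACGTCA and the RORE. Of 32851 windows of this length, 7.15% held CACGTG, 0.938% held TTATGTAA and 0.0213% held TTATGTAA more than once. The Hlf window held TGACGTCA 9 bases before the start, and 1.79% of all windows held it. No match overlapped another. The windows of Dbp, Nfil3 and Usp2 and the second window of Per1 held none of these letters, which says nothing of sequences elsewhere in those genes.

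Usp2, Per2, Dbp, Hlf and Tef were higher in ACBP-/- liver at their brightest probe sets, by 1.33-fold in Tef to 2.02-fold in Usp2. Per1 and Nfil3 did not pass the test. Per2 was called at only 1 of its 3 tested probe sets, and not when these were averaged. Per3 was higher at 3 of its 5 tested probe sets, though not at its brightest. Of 19 tested probe sets of the 8 genes, 12 rose and 0 fell (limma, adjusted p under 0.05). Of all 22482 tested probe sets, 2.68% were called higher and 5.68% were called in either direction. The knockout pools all lay above the wild-type pools for 13 of the 19, against 11.6% of all tested probe sets. The median log2 difference over the 8 genes, each by its brightest tested probe set, was 0.46, and over all 10908 genes it was 0.02. All differences are ACBP-/- minus wild-type on the log2 scale of the deposited signals. In bulk liver, fewer cells of a type and less RNA per cell cannot be told apart.

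The count of 12 depended on which pools entered the fit. Leaving out wild-type pool 1, 2 or 3 gave 6, 6 and 7, and leaving out knockout pool 1, 2 or 3 gave 8, 6 and 11. Counted by the brightest probe set, 5 of the 8 genes were called higher, against 3.29% of all genes higher and 7.16% in either direction, and this number stayed at 5 whichever pool was left out. Without the intensity trend in the variance model 3 probe sets were called, both of Usp2 and the brightest of Per2, and these kept their call in all 15 other settings of the probe set fits, although Per2 lost it when its probe sets were averaged. With the pool number as a block, 10 were called. The second probe sets of Tef and Hlf and the 2 dimmest of the called Per3 probe sets lost their call without wild-type pool 1, 2 or 3 or knockout pool 1 or 2, and the other called Per3 probe set lost it without wild-type pool 1 or 2 or knockout pool 2. With quantile normalization 10 were called, without that Per3 probe set (adjusted p = 0.0513, limma) and the second of Dbp.

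**Figure D1:**
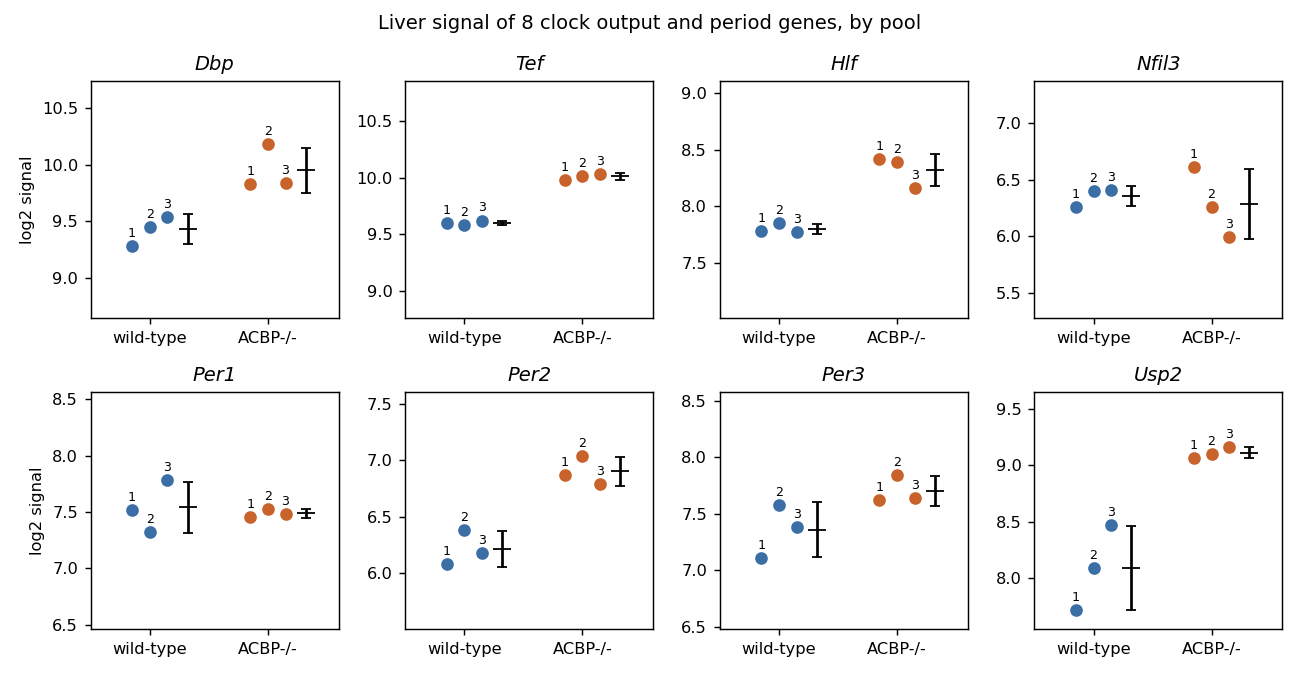
Log2 signal of the brightest tested probe set of each gene in the 3 wild-type and 3 ACBP-/- pools, numbered by pool, with mean and SD (n = 3 pools) beside the points. Every panel spans the same height, and the groups lie apart for all genes but Nfil3 and Per1.

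Among the arrays as a whole, the share of probe sets called Present lay between 48.4% and 51.1%, and Dbi, at its brightest probe set, read between 5.15 and 5.37 in knockout pools against 15.74 to 15.94 without the mutation. The 3' to 5' signal ratio of the actin control probe sets was 2.18 or 2.19 for wild-type arrays but 2.34 or 2.35 for ACBP-/- arrays. It so moved with the genotype, as most of the clock genes did. The same ratio of the Gapdh control probe sets overlapped, at 0.874 to 0.916 for wild-type and 0.906 to 0.909 for ACBP-/- arrays. The part of these ratios in the results was not tested. Knockout pool 1 stood apart at the Y-linked gene Eif2s3y, with 1.16 against 6.97 to 8.69 in the other pools. The other pools were not alike at sex-linked genes either. Xist, at its brightest probe set, read 11.04, 9.14 and 11.01 in wild-type and 11.14, 10.03 and 9.04 in knockout pools. The part of sex in the results of the clock genes and of the gene lists below was not tested. For the liver label, 8 of 8 tested hepatocyte markers were Present on all arrays and 0 were called changed, with a mean log2 level between 13.23 and 13.31 in every pool. Of the other cell type markers, 2 of 4 tested neutrophil genes rose, and the list's mean level ran from 6.57 to 6.77 in knockout pools, above its range of 6.30 to 6.51 in the controls. Of the endothelial genes 2 of 8 fell, while the list's mean level was 8.68 to 8.82 in knockout pools against 8.83 to 8.90 in the controls. Of the stellate cell genes 1 of 7 rose and 2 fell, and the list's mean level was 9.38 to 9.54 in knockout pools against 9.50 to 9.55. Of the Kupffer cell genes 1 of 9 fell, the scavenger receptor gene Marco, by 0.44 (SE 0.11, adjusted p = 0.0215, limma), and the list's mean level was 9.56 to 9.58 against 9.56 to 9.75. None of 2 cholangiocyte, 1 lymphocyte and 3 erythroid genes tested was called, with mean levels in knockout against wild-type pools of 5.75 to 5.92 against 5.63 to 5.96, 5.16 to 5.38 against 5.48 to 5.78, and 6.54 to 6.67 against 6.42 to 6.84. Beside these marker counts, 3.29% of all genes were called higher and 7.16% in either direction. The part of these cells in the clock gene results was not tested.

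All of the PAR bZIP activators rose, by 0.41 to 0.52 at their brightest probe sets. Dbp, named for its binding to the albumin D site, read 9.28, 9.45 and 9.54 in wild-type pools 1 to 3 and 9.83, 10.18 and 9.84 in knockout pools 1 to 3 at its brightest probe set. The groups did not overlap, and knockout pool 2 was highest. The difference was 0.52 (SE 0.10, n = 3 pools per genotype, adjusted p = 0.0035, limma), or 1.44-fold. A second Dbp probe set read 8.43, 8.44 and 8.54 against 8.58, 9.05 and 8.96. There knockout pool 1 lay just above the highest wild-type pool, and the difference of 0.39 (SE 0.11, adjusted p = 0.047, limma) was no longer called without any one of wild-type pools 1, 2 and 3 or knockout pools 2 and 3, nor with quantile normalization (adjusted p = 0.104).

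Tef, thyrotroph embryonic factor, had the tightest readings of the 8 genes. Its brightest probe set read 9.60, 9.58 and 9.62 in wild-type and 9.98, 10.01 and 10.03 in knockout pools. The gap between genotypes was many times the spread within them, at SDs of 0.02 and 0.03. The difference was 0.41 (SE 0.07, adjusted p = 0.00195, limma). In the authors' deposited table the same probe set had the smallest p of the 20, 3e-05, with a corrected p of 0.0521. The second Tef probe set read 6.73, 6.50 and 6.64 against 7.11, 7.04 and 6.99 and rose by 0.42 (SE 0.11, adjusted p = 0.0319, limma). The third and dimmest gave 0.31 (SE 0.18, adjusted p = 0.399, limma), with overlapping groups.

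Hlf, hepatic leukemia factor, read 7.78, 7.85 and 7.77 in wild-type and 8.42, 8.39 and 8.16 in knockout pools at its brighter probe set. Here knockout pool 3 was the lowest of its group and still above every wild-type pool. The difference was 0.52 (SE 0.10, adjusted p = 0.00351, limma), and the second probe set gave 0.41 (SE 0.11, adjusted p = 0.0301, limma). The rises of the brightest probe sets of Dbp and Hlf ranked 110 and 106 by size among the 359 genes called higher, and that of Tef ranked 198.

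Nfil3, the repressor of D-box genes, was not called. Its only probe set read 6.26, 6.40 and 6.41 in wild-type and 6.61, 6.26 and 5.99 in knockout pools. Knockout pool 1 was the highest of all pools and knockout pool 3 the lowest, so every wild-type reading lay within the knockout range. The difference of -0.07 had a 95% interval from -0.38 to 0.24 (adjusted p = 0.861, limma). The interval holds rises and falls, but not a rise as large as the 0.52 of Dbp. Set against Nfil3 within each pool, Dbp gained 0.59, Hlf 0.59 and Tef 0.48. In all 3 cases the knockout pools lay above the wild-type pools (exact two-sided permutation p = 0.1, the smallest that 3 pools against 3 can give, adjusted p = 0.12 over 6 such pairs). The 6 pairs were chosen with earlier results of these data known, and none could reach a p under 0.05, so they are descriptions.

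Of the Period genes, Per2 was called at its brightest probe set, Per3 at others only, and Per1 at none. Per1 encodes a PER protein whose transcript also responds quickly to hormonal signals. It read 7.52, 7.32 and 7.78 in wild-type and 7.46, 7.53 and 7.48 in knockout pools. All 3 knockout readings fell inside the wild-type range. The difference was -0.05 (SE 0.12, 95% interval -0.30 to 0.20, adjusted p = 0.872, limma), and with arrays centred on their medians it was 0.01.

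Per2, a core repressor of the loop, rose at its brightest probe set, from 6.08, 6.38 and 6.18 in wild-type to 6.87, 7.04 and 6.79 in knockout pools. The lowest knockout pool lay above the highest wild-type pool. The difference was 0.68 (SE 0.12, adjusted p = 0.00236, limma), or 1.61-fold. The other Per2 probe sets were not called. One read 5.31, 6.18 and 5.82 against 6.11, 6.04 and 6.34, with a difference of 0.39 (95% interval 0.01 to 0.77, adjusted p = 0.268, limma). The dimmest, designed from the same transcript record as the brightest, was called Present on 3 of 6 arrays and read 5.21, 5.38 and 5.18 against 4.93, 4.75 and 5.57, a difference of -0.17 (adjusted p = 0.733, limma). With all 3 probe sets averaged, Per2 gave 0.30 (adjusted p = 0.225, limma) and was not called. Set against Per1 within each pool, the brightest Per2 probe set gained 0.74 (exact permutation p = 0.1, the smallest possible, adjusted p = 0.12).

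Per2 lies on chromosome 1, as does the targeted gene Dbi, with 50 other tested genes between them in the gene order of GRCm38.p6. Of these 50, 3 were called higher and 5 lower, while 9.61% of the 635 tested genes of the chromosome and 7.16% of all genes were called. Of the 20 tested genes nearest to Per2 on the side of Dbi, 1 was higher and 3 were lower. Of the 20 nearest on its other side, 0 were called at the same adjusted p (limma). The part of chromosomal position in the Per2 result was not tested.

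Per3, the Period gene not required for the central rhythm in mice, had 6 probe sets. The 4 that were Present on every array each had all knockout pools above all wild-type pools. The brightest read 7.11, 7.58 and 7.38 in wild-type and 7.62, 7.84 and 7.64 in knockout pools. Wild-type pool 2 lay just below the lowest knockout pool, and the difference of 0.34 (SE 0.12, adjusted p = 0.132, limma) was not called. The next 3 rose by 0.46 (SE 0.12, adjusted p = 0.0356), 0.39 (SE 0.11, adjusted p = 0.0387) and 0.40 (SE 0.11, adjusted p = 0.0412), all by limma. The last 2 of these lost their call with the pool number as a block, at adjusted p = 0.0542 and 0.0507. Of the remaining probe sets, one was Present on 3 of 6 arrays with a difference of -0.10 (adjusted p = 0.873, limma), and the other was Present on none and was not tested. Set against Per1 within each pool, the brightest Per3 probe set gained 0.39, with overlapping groups (exact permutation p = 0.3, adjusted p = 0.3).

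Usp2 showed the largest difference of the 8 genes. It read 7.72, 8.09 and 8.47 in wild-type and 9.06, 9.10 and 9.16 in knockout pools at its brighter probe set. The knockout pools were close together, with an SD of 0.05, while the wild-type pools spread with an SD of 0.37. The difference was 1.02 (SE 0.14, adjusted p = 0.00013, limma), or 2.02-fold, and ranked 17 by size among the 359 genes called higher. It lay between 0.83 and 1.20 over the other settings. The second probe set read 7.35, 7.61 and 7.86 against 8.55, 8.57 and 8.66, a difference of 0.99 (SE 0.12, adjusted p = 3.11e-05, limma). Set against Per1 within each pool, Usp2 gained 1.07 (exact permutation p = 0.1, the smallest possible, adjusted p = 0.12).

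**Figure D2:**
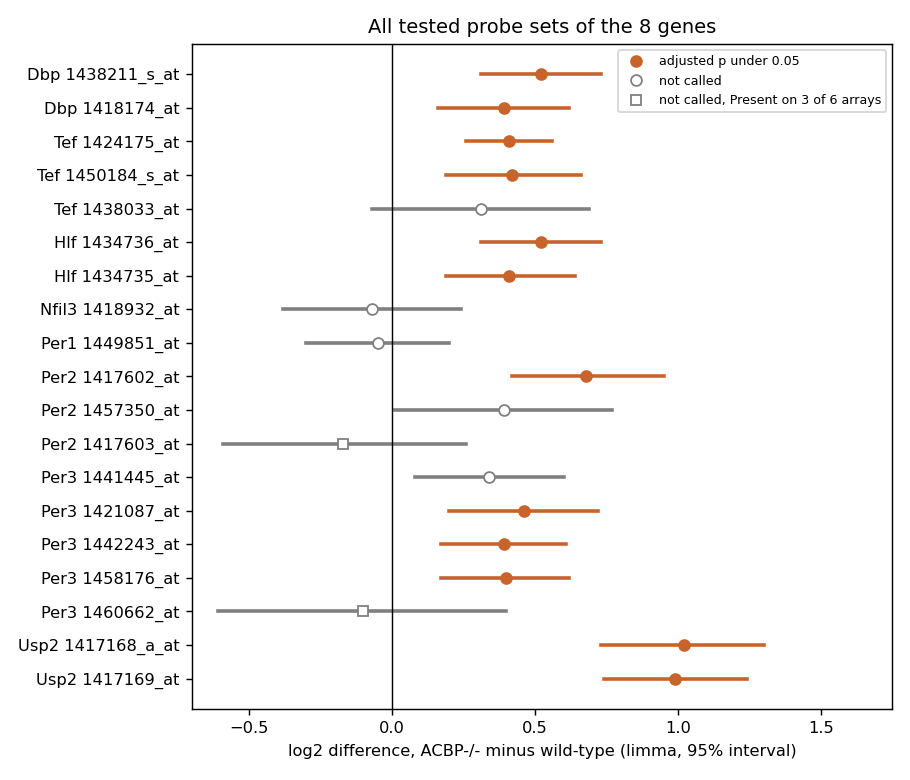
Log2 difference between ACBP-/- and wild-type liver with its 95% interval from limma, for the 19 tested probe sets of the 8 genes. Filled points passed an adjusted p of 0.05, and the probe sets called Present on only 3 of 6 arrays, drawn as squares, lie at -0.17 and -0.10.

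Pools of one genotype took different places in the order. Over the 13 probe sets whose groups lay apart, several of which share a gene, wild-type pool 1 was the lowest wild-type reading in 9, pool 2 in 2 and pool 3 in 2. Knockout pool 2 was the highest knockout reading in 7 of them, pool 3 in 3 and pool 1 in 3. In the authors' deposited table, 16 of the 20 probe sets were marked up in knockout, where 48.8% of all probe sets were, 11 had an uncorrected p below 0.05, where 10.1% of all probe sets did, and 0 had a corrected p below 0.05, where 22 probe sets on the whole array did.

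The core clock list, which holds the partners of the Period genes, went both ways. Of its 17 genes on the array 13 were tested, 1 rose and 1 fell, and the median difference was -0.06. Over all genes, 3.29% were called higher and 7.16% in either direction. Cry2, which encodes a partner of the PER proteins, read 7.29, 7.22 and 7.34 against 7.78, 7.79 and 7.59 and rose by 0.43 (SE 0.10, adjusted p = 0.0178, limma), a call lost without wild-type pool 1 or 2 or knockout pool 1 or 2. Timeless, known in mammals mainly for its work at replication forks, fell by 0.68 (SE 0.13, adjusted p = 0.00347, limma), and its second probe set gave -0.38 (adjusted p = 0.159). The brightest of those not called were Nr1d2, a REV-ERB repressor, at 0.22 (adjusted p = 0.109), Rora, an activator of the opposing loop, at 0.03, and Csnk1d, a kinase of PER proteins, at -0.18. Arntl, the gene of BMAL1, named here after its values were seen, read 6.62, 6.30 and 6.80 in wild-type and 6.53, 5.78 and 4.90 in knockout pools, with a difference of -0.84 (SE 0.27, adjusted p = 0.0874, limma). Its knockout pools spread over more than the difference, and pool 1 lay inside the wild-type range. Arntl was called without wild-type pool 2 (-0.97, adjusted p = 0.048) and without knockout pool 1 (-1.23, adjusted p = 0.000981), both by limma. It was also called with the pool number as a block (adjusted p = 0.00429, limma), although same-numbered pools hold different mice. Without knockout pool 3 it gave -0.42 (adjusted p = 0.174, limma). Nr1d2 was called without knockout pool 1 (0.30) and with median centring (0.28), and Csnk1d without knockout pool 3 (-0.22). Cry1, also named after its values were seen, read 6.42, 6.38 and 6.80 in wild-type and 7.29, 7.25 and 6.64 in knockout pools. Its difference of 0.53 (SE 0.16, adjusted p = 0.0663, limma) was not called, and its groups overlapped.

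Of genes linked to the PAR bZIP factors in mouse liver, 3 of 8 tested rose and 0 fell, with a median difference of 0.29, against 0.02 over all genes. The shares over all genes were 3.29% higher and 7.16% in either direction. Nr1i3, the nuclear receptor CAR, rose by 0.44 (SE 0.07, adjusted p = 0.00096, limma), from 9.83, 9.93 and 9.93 to 10.40, 10.28 and 10.33. Alas1, the first enzyme of haem synthesis, rose by 0.45 (SE 0.10, adjusted p = 0.00767, limma), although knockout pool 1 at 12.50 lay just below wild-type pool 3 at 12.51. Its second probe set rose by 0.49 (SE 0.09, adjusted p = 0.00265, limma), with groups apart. Cyp2b13, a cytochrome P450, rose by 0.50 (SE 0.13, adjusted p = 0.0238, limma) but was not called without wild-type pool 1, where it gave 0.33, or knockout pool 1. The brightest members not called were Cyp2c50 and Cyp2c37, at 0.02 and 0.01, and Cyp2b9, at 0.16, which was called without knockout pool 3 (0.21).

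Other rhythmic transcripts of mouse liver went both ways, 4 of 12 higher and 3 lower, with a median of 0.19. Of all genes, 3.29% were called higher and 7.16% in either direction. Wee1, a kinase that holds back mitosis, rose by 0.63 (SE 0.11, adjusted p = 0.0021, limma), with 7.65, 7.73 and 7.55 in wild-type and 8.04, 8.34 and 8.45 in knockout pools. Its second probe set gave 0.36 (adjusted p = 0.0879, limma) and was not called. Coq10b, Gys2 (liver glycogen synthase) and Nampt (an enzyme of NAD salvage) rose by 0.48, 0.38 and 0.36. Coq10b lost its call without wild-type pool 1 or 2 or knockout pool 2, and Nampt without wild-type pool 1. Of the dimmer Nampt probe sets, one was called at 0.43 (adjusted p = 0.0098, limma). The other was not, at 0.34 (adjusted p = 0.0963, limma). Those lower were the phosphatidate phosphatase Lpin1, at -0.71 (SE 0.14), the vasopressin receptor Avpr1a, at -0.49 (SE 0.13), and Cdkn1a, which encodes the inhibitor p21. Cdkn1a read 6.73, 6.42 and 6.92 against 6.53, 5.75 and 4.68, a difference of -1.04 (SE 0.30, adjusted p = 0.0498, limma) with overlapping groups. Cdkn1a gave -0.55 without knockout pool 3 and -1.48 without knockout pool 1. It lost its call without wild-type pool 1 or 3 or knockout pool 2 or 3, and Avpr1a without wild-type pool 1 or 2. A second Cdkn1a probe set was Present in 3 wild-type and 0 knockout pools, so it passed the detection filter through the wild-type pools alone. It read 5.95, 5.58 and 5.58 against 5.42, 4.25 and 3.68. Its difference of -1.26 is given as a description and adds no support to the first. Upp2, Noct and Chka, the brightest not called at their brightest probe sets, gave 0.26, 0.26 and -0.28. Other probe sets of these genes were called, Upp2 at 0.29 (adjusted p = 0.0415, limma) and Chka at -0.68 and -0.50 (adjusted p = 0.018 and 0.0308, limma). The brightest probe set of Upp2 was called without wild-type pool 3 (0.32) or knockout pool 1 (0.31), with median centring, with the block and among probe sets Present on all arrays, and Noct was called without wild-type pool 3 (0.36).

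Of 14 tested genes that glucocorticoids induce, the class of signal to which Per1 also responds, 1 rose and 1 fell, with a median of -0.07. Over all genes, the shares called were 3.29% higher and 7.16% in either direction. Fkbp5, a co-chaperone of the glucocorticoid receptor, rose by 0.36 (SE 0.09, adjusted p = 0.0247, limma), and the transcription factor gene Klf9 fell by 0.17 (SE 0.05, adjusted p = 0.0469, limma). Both calls were lost without any one of wild-type pools 1, 2 and 3 or without knockout pool 1, and that of Klf9 also without knockout pool 2. A second Fkbp5 probe set was called as well, at 0.39 (SE 0.10, adjusted p = 0.0364, limma). The other 5 tested Klf9 probe sets were not called, at -0.24 to -0.13. Errfi1, Pck1 and Igfbp1, the brightest not called, gave -0.12, 0.14 and -0.24. Errfi1 was called without knockout pool 3 (-0.18), and Igfbp1 without wild-type pool 2 (-0.33) or knockout pool 3 (-0.26), with the pseudocount, with the block and among probe sets Present on all arrays.

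**Figure D3:**
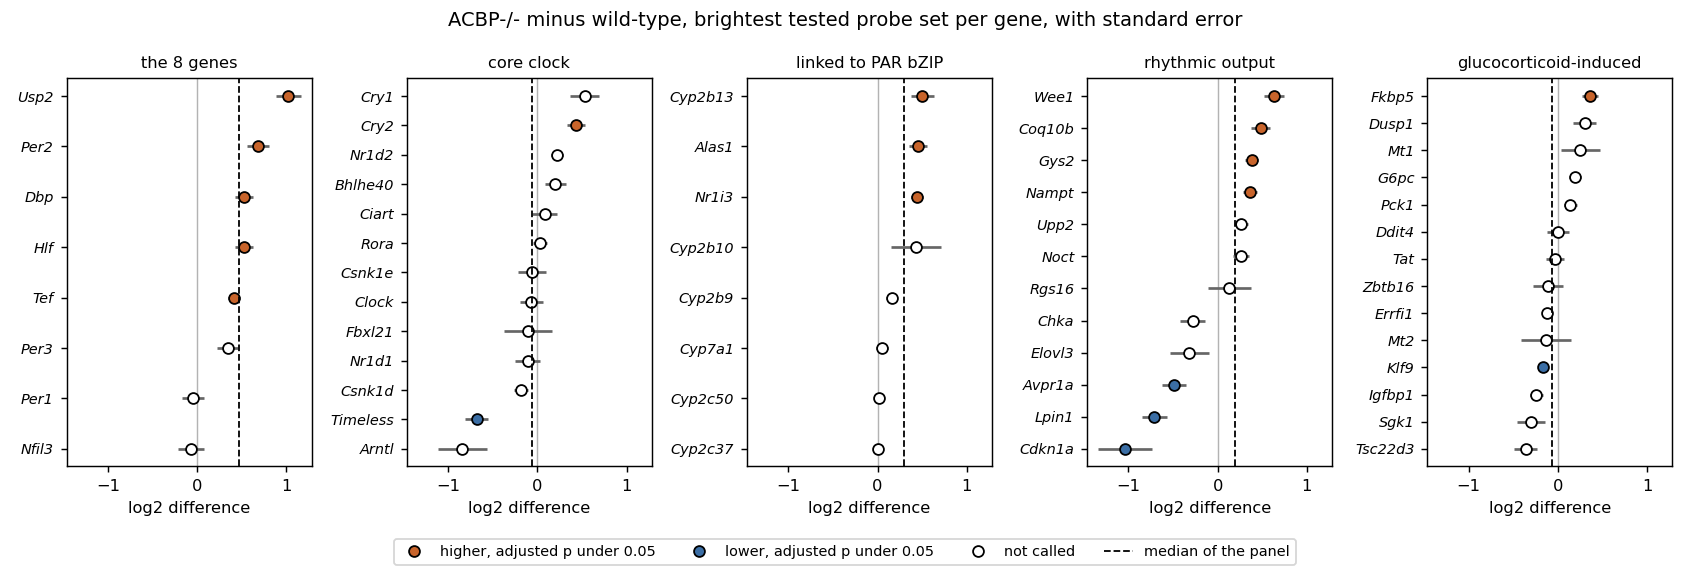
Log2 difference with standard error, by the brightest tested probe set, for the 8 genes and for the genes of the core clock, PAR bZIP-linked, rhythmic output and glucocorticoid-induced lists. Dashed lines are the medians, 0.46 for the 8 genes and -0.06, 0.29, 0.19 and -0.07 for the lists in that order.

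Of the 64 tested genes whose promoter window held TTATGTAA, as that of Per3 does, 4 were called higher and 5 lower. These were 6.25% and 7.81%, against 3.22% and 3.77% of the 8800 genes with a window without it, and the median differences were 0.05 and 0.02. Of the 1053 genes with CACGTG, as in Tef and Per1, 35 were called higher and 40 lower, or 3.32% and 3.80%, against 3.23% and 3.80% of the 7811 without it. These shares are given as descriptions, with no test.

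The genes whose pools ran most like those of each member were found among genes with a mean signal of at least 100, as the smallest mean absolute log2 difference over the 6 pools after each profile was centred. Nearest to Dbp were Riok2 (0.0147), Nudt19 (0.0467) and Rab20 (0.0781). Nearest to Tef were Fitm2, Dipk2a and Gfra1, at 0.0265 to 0.0308, and nearest to Hlf were Atg4d, Ndufaf4 and Cyp3a13, at 0.0336 to 0.0422. Per2 had Abcg5, Timm9 and Mir22hg at 0.0718 to 0.0797, and Per3 had Nat2, Fabp2 and Mfsd4b1 at 0.0575 to 0.0827. Usp2 had no neighbour closer than 0.116, for Ggt6, followed by Nrg4 and Gsta2. Nfil3 lay nearest to Fam20a, Purb and Anxa1 (0.0347 to 0.0433) and Per1 to Il17rb, Sipa1 and Cd68 (0.0408 to 0.0477). Per2 and Nfil3 lay below that signal themselves and so could not be listed. None of the other members was among the 3 genes listed for another. With 7404 or 7405 candidates for each member, this does not show that the members ran differently.

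**Figure D4:**
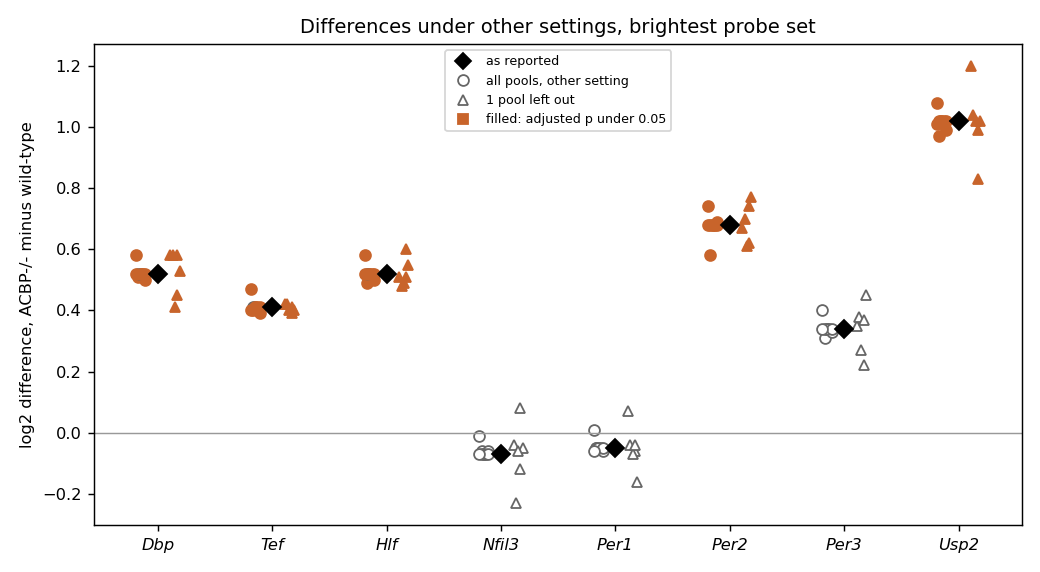
Log2 difference of the brightest probe set of each gene as reported (diamonds), under other settings with all pools (circles) and with 1 pool left out (triangles), filled where the adjusted p was under 0.05. Usp2 and Per2 stayed filled throughout, Per3 was never filled, and Nfil3 and Per1 lay on both sides of 0.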

How the data were processed

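Liver RNA of 3 wild-type and 3 ACBP-/- pools was measured on 6 Affymetrix arrays. For each of 45101 probe sets the authors deposited a log2 signal, a call of detection and its p-value on every array. MAS5 is named per the submitters' processing notes, with no version or settings stated there. The authors' deposited table also gives a p-value, a corrected p-value, an absolute fold ratio and a direction per probe set. The series matrix repeats the log2 values (largest difference 4.91e-07). Per-array counts of probes used, 6 columns, were not used. Values were taken without a pseudocount. Testing was limited to probe sets with a Present call on 3 or more arrays, without the 64 controls, which gave 22482. Readings near background are imprecise, and having 6 arrays limits every estimate.

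Genotypes were compared with limma 3.58.1 in R 4.3.3 (lmFit, eBayes with an intensity trend, Benjamini-Hochberg over all 22482), called at an adjusted p under 0.05. Intervals are 95% from this fit. It was also run on simulated data with independent normal noise drawn from its own variance estimates. Such data meet the model's assumptions, so they cannot show how the fit behaves on these pools. The brightest tested probe set stood for a gene. Differences between members within pools used the exact permutation test over pools. The members, lists and pairs were chosen with earlier results of these data known, and lists are described by counts and medians. The genes named were Dbi, the 8 members, every called gene of each list, up to 3 uncalled genes of highest signal per list, and the 3 nearest profiles of each member. Arntl and Cry1 were added after their values were seen. The 4 lists of rhythmic and hormone-induced genes and the 8 marker lists were written by hand. The alternatives tried were each pool left out, the pool number as a block, quantile normalization, a pseudocount of 16, median centring, a fit without the trend, all probe sets, those Present on 6 of 6 arrays, averages over the probe sets of a gene, the series matrix and, added after seeing the data, centring on hepatocyte markers. Same-numbered pools hold different mice, and their deviations correlated at -0.0298, -0.00776 and -0.0815, so the numbers do not pair them.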

Additional observations from a re-analysis of the deposited data

How the results depend on the processing

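Under the alternatives run, no called probe set of the 8 genes changed direction, and Per1, Nfil3 and the dimmest tested Per3 probe set, none of them called, changed sign in at least 1. With all pools kept, the count of 12 member probe sets fell to 6 without a detection filter and to 3 without the intensity trend. That last setting called 2 member genes in place of 5, and on the whole array 378 probe sets, 110 of them higher, in place of 1277 and 602. Without a filter more probe sets were tested, and the cause of the other change was not tested. With single pools left out, the whole-array count ran from 639 (without wild-type pool 1) to 3010 (without knockout pool 3), of which 265 to 2055 were higher, and the member count ran from 6 to 11, with 5 member genes each time. Without wild-type pool 2 and knockout pools 1 and 2, 381, 373 and 338 probe sets were higher. Of all calls 47.1% were higher, against 64.5% with median centring and 29.1% without the trend. The pool number as a block gave 1370 changed probe sets, 10 of them members. Averaging over the probe sets of each gene gave 4 member genes, since Per2 fell to 0.30 (adjusted p = 0.225). Of the 14 called genes of the lists, 13 lost their call without the trend, Cyp2b13, Avpr1a, Cdkn1a and Klf9 without a filter, Cdkn1a and Klf9 with quantile normalization, Avpr1a and Klf9 with median centring and Klf9 with hepatocyte centring. Dim Period probe sets are limited by signal near background.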
